A study of Mus musculus with 25 samples.

Results

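The 7 genes described here encode the CDK inhibitors of the mouse, the proteins that bind cyclin-dependent kinases (CDKs) and hold back the cell cycle. They were taken by symbol: Cdkn1a, Cdkn1b and Cdkn1c of the Cip/Kip family, and Cdkn2a, Cdkn2b, Cdkn2c and Cdkn2d of the Ink4 family. All 7 of 7 were listed among the 15315 genes of the long-term table and among the 14007 genes of the short-term table, and all 7 passed the filter on low reads in both.

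As background, the Ink4 proteins p15 (Cdkn2b), p16Ink4a (Cdkn2a), p18 (Cdkn2c) and p19Ink4d (Cdkn2d) bind CDK4 and CDK6 and keep them from cyclin D. The Cip/Kip proteins p21 (Cdkn1a), p27 (Cdkn1b) and p57 (Cdkn1c) bind complexes of cyclins with CDKs, CDK2 complexes above all. Both families act upstream of RB, since CDKs inactivate RB by phosphorylation and RB in turn restrains E2F transcription factors. Cdkn2a also encodes p19Arf from its own upstream first exon, a protein that stabilises p53, and Cdkn1a is a classic p53 target gene. In mice, loss of p27 or p18 is known for giving tumors of the pituitary intermediate lobe, the tissue in which loss of RB also gives tumors.

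The libraries came from pituitaries of shRb mice, and the study describes this tissue as pituitary tumors in both experiments. The mice carry rtTA at Rosa26, a promoter active in most tissues, and a doxycycline (dox)-driven shRNA against Rb linked to GFP at Col1a1. All mice derive from 1 embryonic stem cell clone, all received dox, and pituitaries never exposed to dox are not analysed here. In the long-term experiment, pituitaries were taken after 6 weeks of dox (6w+dox, 3 females), after 12 weeks of dox (12w+dox, 2 females and 2 males) or after 6 weeks of dox and 6 weeks without it (12w-res, 3 females and 2 males). In the short-term experiment, mice were on dox for 16 weeks (16w+dox, 3 males) and were then left without dox for 1 day (1d-dox, 4 females), 3 days (3d-dox, 3 males) or 5 days (5d-dox, 3 females). The labels give no age. The long-term libraries were made by poly(A) selection and the short-term libraries by rRNA depletion, and levels are compared within an experiment only. In the short-term series, sex and days off dox cannot be told apart when females are compared with 16w+dox males.

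Values are FPM, read fragments scaled to a common library size by size factors. A gene was called when its log2(FPM + 0.5) values in limma had an adjusted p (Benjamini-Hochberg) under 0.05 together with a log2 fold change beyond 1 in either direction. Reads on genes ran from 19066053 to 28968476 per mouse in the long-term and from 9573101 to 13036900 in the short-term experiment. The targeted gene, Rb1, stood at 3.16 FPM in 6w+dox, 3.21 FPM in 12w+dox and 18.2 FPM in 12w-res pituitaries, and all 5 12w-res mice were above all 7 mice on dox. In the short-term libraries Rb1 lay between 3.47 and 6.03 FPM throughout, and was called in no comparison, while GFP fell from 1247 FPM in 16w+dox to 11.7 FPM in 5d-dox mice (log2 fold change -6.69, SE 0.31, limma adjusted p = 3.77e-08). Pomc, the hormone precursor gene of melanotrophs and corticotrophs, took 12.9 to 23.0% of reads on genes in 12w+dox and 39.1 to 43.2% in 12w-res libraries.

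Gene positions are from RefSeq on GRCm38, the build used for mapping (mm10). Cdkn2a (chr4:89274473-89294619) and Cdkn2b (chr4:89306289-89311032) are neighbours 11.67 kb apart, and Cdkn2c lies further along the same chromosome at chr4:109660876-109666756. Cdkn1a is at chr17:29090979-29100722, Cdkn1b at chr6:134920401-134925525, Cdkn1c at chr7:143458339-143461059 and Cdkn2d at chr9:21288459-21291421. RefSeq windows around annotated starts (GRCm38.p6) were found for 6 of 7 members, 9 windows in all, and none was given for Cdkn1c. As an E2F match, the word TTCCCGC, the word TTCGCGC, the word TTGCCGC or the word TTGGCGC was searched on both strands, and so were the p53 half-site consensus, the CHR element TTTGAA and the GC box GGGCGG. An E2F word stood in 2 of the 9 windows, at bases -98 to -92 from the upstream start of Cdkn2a, from which p19Arf is made, and at bases -25 to -19 from the upstream start of Cdkn2c, against 9.57% of all 32851 RefSeq windows. The inner start of Cdkn2a, that of p16Ink4a, held none. A p53 half-site stood in the windows of Cdkn1a (2 matches, at bases -73 to -64 and -51 to -42 from the upstream start) and of Cdkn2d (1 match), against 8.36% of all windows. No E2F match overlapped a p53 half-site, and the half-site of Cdkn2d overlapped a GC box. A CHR element stood in 1 of the 9 windows, that of Cdkn2b (17.9% of all windows), and a GC box in 7 (35.7% of all windows). The windows of Cdkn2a, Cdkn2c and Cdkn1a are printed because these genes were called lower in 12w-res than in 12w+dox, as described below. That of Cdkn2b is printed because its level was not lower. Cdkn2d and Cdkn1b were lower by adjusted p alone. Their windows and the second window of Cdkn2c are not printed and held no E2F word. Each printed window reads 5′ to 3′ on the gene's strand with E2F words (and, for Cdkn1a, p53 half-sites) in capitals.
Cdkn2a, upstream start, chr4:89294570-89294869, minus strand: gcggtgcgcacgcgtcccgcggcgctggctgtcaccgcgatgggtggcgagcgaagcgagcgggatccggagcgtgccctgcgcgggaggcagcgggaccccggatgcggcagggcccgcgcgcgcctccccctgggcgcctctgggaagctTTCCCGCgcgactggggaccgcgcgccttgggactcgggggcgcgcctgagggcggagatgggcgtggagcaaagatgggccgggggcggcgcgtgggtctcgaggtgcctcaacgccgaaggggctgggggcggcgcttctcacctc
Cdkn2c, upstream start, chr4:109666707-109667006, minus strand: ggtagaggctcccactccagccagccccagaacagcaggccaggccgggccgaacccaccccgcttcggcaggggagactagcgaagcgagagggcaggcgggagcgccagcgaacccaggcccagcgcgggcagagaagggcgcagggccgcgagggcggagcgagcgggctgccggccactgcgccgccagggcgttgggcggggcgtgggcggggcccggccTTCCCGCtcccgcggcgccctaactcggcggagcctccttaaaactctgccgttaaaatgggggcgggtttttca
Cdkn1a, upstream start, chr17:29090729-29091028, plus strand: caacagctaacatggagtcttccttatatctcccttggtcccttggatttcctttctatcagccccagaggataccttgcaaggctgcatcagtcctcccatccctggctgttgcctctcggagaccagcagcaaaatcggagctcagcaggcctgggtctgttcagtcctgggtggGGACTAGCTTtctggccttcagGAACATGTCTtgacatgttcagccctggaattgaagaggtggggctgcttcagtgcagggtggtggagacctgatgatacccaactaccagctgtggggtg
Cdkn2b, chr4:89310983-89311282, minus strand: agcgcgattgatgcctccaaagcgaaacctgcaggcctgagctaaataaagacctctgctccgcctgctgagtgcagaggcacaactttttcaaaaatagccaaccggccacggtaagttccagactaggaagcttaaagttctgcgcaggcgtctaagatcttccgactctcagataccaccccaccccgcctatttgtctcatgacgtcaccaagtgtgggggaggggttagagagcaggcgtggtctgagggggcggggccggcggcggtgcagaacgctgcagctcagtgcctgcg
A match describes letters in the window only, and whether a factor was bound there was not measured.

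Per kilobase of the longest transcript, the 2 most abundant CDK inhibitor mRNAs on dox were those of p18 and p27. In 12w+dox pituitaries Cdkn2c had 47.7 ± 9.24 FPM per kb (SD, n = 4) and Cdkn1b 41.6 ± 6.75 FPM per kb, with overlapping mice. Cdkn2d followed at 26.04 ± 6.39 FPM per kb and Cdkn1a at 15.6 ± 3.63 FPM per kb, each apart from its higher neighbour by little. The highest Cdkn2d mouse (33.01) lay close under the lowest for Cdkn1b (34.35), and the highest Cdkn1a mouse (18.5) close under the lowest for Cdkn2d (18.54). Cdkn2a (11.2 ± 2.55 FPM per kb) and Cdkn1c (10.7 ± 4.07 FPM per kb) overlapped each other, and Cdkn2b was lowest at 2.75 ± 0.30 FPM per kb, apart from all others. The order in 6w+dox was alike at its top and bottom, with Cdkn1c above Cdkn1a at 24.9 ± 5.49 FPM per kb.

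After 6 weeks without dox the order per kb was different at the top and the bottom. At the top this held per kb only, since in FPM Cdkn1b was above Cdkn2c here as it was on dox (116.5 against 36.83 FPM in 12w-res). Cdkn1b led at 25.6 ± 3.32 FPM per kb (SD, n = 5), and its lowest mouse (22.0 FPM per kb) was above the highest mouse for Cdkn2c (16.8 FPM per kb). Cdkn2a (3.66 ± 0.71 FPM per kb) and Cdkn2b (3.57 ± 0.74 FPM per kb) shared the lowest place. Summed per kb, the 4 Ink4 genes held 55.3 to 57.1% of the level of all 7 genes in 12w+dox mice and 43.5 to 51.2% in 12w-res mice, without overlap. In 6w+dox mice they held 49.9 to 53.7%, which overlapped 12w-res. These shares depend on the transcript lengths used.

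**Figure D1:**
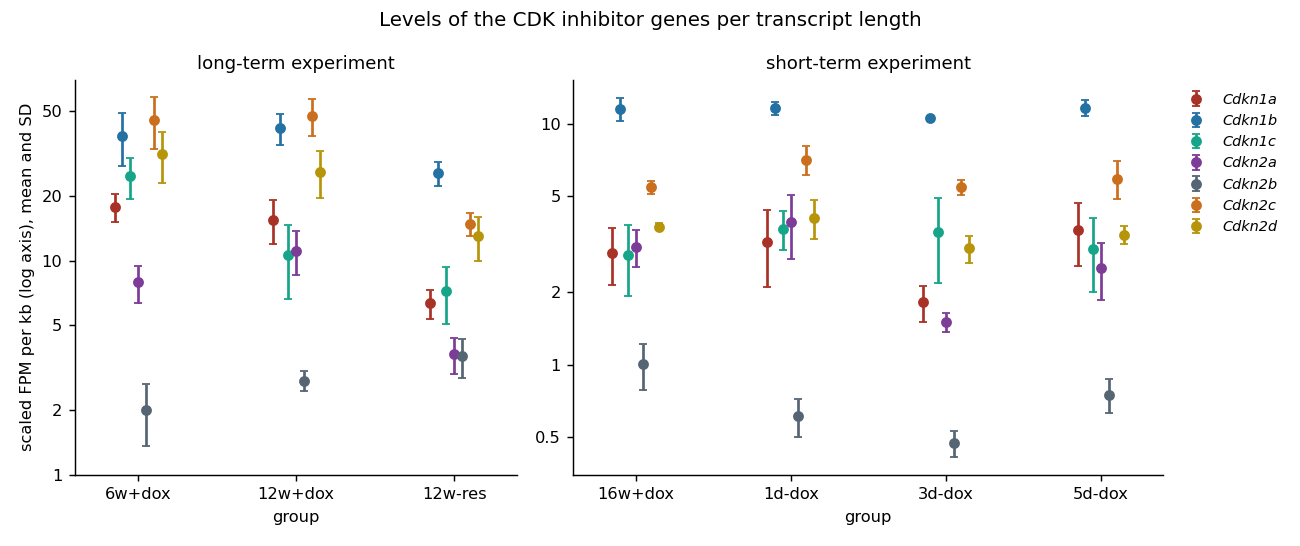
Levels of the 7 genes as size-factor scaled FPM per kb of the longest transcript, on a log axis, for each group of the long-term (left) and short-term (right) experiment; points are means and bars SD. Cdkn2c and Cdkn1b lead on dox in the long-term experiment, Cdkn1b leads in 12w-res and in all 4 short-term groups, and Cdkn2b is lowest or shares the lowest place.

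The comparison of 12w-res with 12w+dox asks how pituitaries of the same treatment span differ when RB has been re-expressed. Of the 7 CDK inhibitor genes, 3 were called lower after dox removal (Cdkn2c, Cdkn2a and Cdkn1a) and 0 higher, where 5.04% of all 15315 genes tested were called lower and 6.24% higher. By adjusted p alone, 5 of 7 were lower (18.3% of all genes) and 0 higher (19.4% of all genes), with Cdkn2d and Cdkn1b added; unadjusted p was under 0.05 for the same number, 5 of 7 (47.3% of all genes). The 5 genes were lower in every 12w-res mouse than in any 12w+dox mouse (17.4% of all genes were lower and 17.1% higher without overlap). The median log2 fold change was -1.22 over the 4 Ink4 genes and -0.69 over the 3 Cip/Kip genes, against -0.004 over all genes. In bulk tissue, fewer cells of a type and less RNA per cell cannot be told apart. With libraries scaled by total reads in place of size factors, the median of all genes was shifted to -0.61, and 6 of 7 genes were called lower, with Cdkn2d (-1.62), Cdkn1b (-1.35) and Cdkn1c (-1.16) added. P-values set the difference between group means against the spread between these mice.

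Against 6w+dox, the state in which dox was taken away, 5 of 7 genes were called lower and 0 higher, where 5.82% of all genes were called lower and 5.81% higher. These were Cdkn1c, Cdkn2c, Cdkn1a, Cdkn2d and Cdkn2a, and in each of them every 12w-res mouse was below every 6w+dox mouse (15.9% of all genes were lower and 16.9% higher without overlap). By adjusted p alone 6 of 7 were lower (16.8% of all genes) and 1, Cdkn2b, was higher (17% of all genes), and unadjusted p was under 0.05 for 7 of 7 (44% of all genes). Cell type markers moved in this comparison too. Pituicyte and neural lobe markers summed to 66.4 to 182 FPM in 6w+dox and to 19 to 30.8 FPM in 12w-res mice (6 of 7 called lower), and markers of other hormone cells to 58700 to 94200 FPM and to 17400 to 35000 FPM (3 of 10 called lower). Fibroblast and pericyte markers summed to 364 to 386 FPM and to 845 to 1180 FPM (4 of 8 called higher). Of the rest, 2 of 8 melanotroph and corticotroph markers were called higher and 2 lower, 1 of 8 macrophage markers was called higher, 1 of 7 stem and folliculostellate and 1 of 5 lymphocyte markers were called lower, and 0 of 8 endothelial markers were called. Their part in the differences of the inhibitor genes was not tested. The comparisons with 12w+dox and with 6w+dox use the same 12w-res mice, so their values are given side by side and not as separate evidence.

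Cdkn2c, which encodes p18, had the largest difference from 12w+dox among the 7 genes, and the second largest from 6w+dox after Cdkn1c. It measured 141, 117 and 80.3 FPM in the 6w+dox mice and 92.3, 133, 141 and 106 FPM in the 12w+dox mice. The 5 12w-res mice had 41.3, 32.3, 36.9, 41.6 and 32.0 FPM, so that the highest of them was well below the lowest mouse on dox. Its level was 3.15-fold lower than in 12w+dox (log2 fold change -1.65, SE 0.17, limma adjusted p = 5.48e-06; exact two-sided permutation p = 0.00794, the smallest that 5 against 4 mice allow). Against 6w+dox it was 2.98-fold lower (log2 fold change -1.58, SE 0.18, limma adjusted p = 2.27e-05). The E2F word in its upstream window is printed above.

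Cdkn2d, the gene of p19Ink4d, had 52.0, 51.4 and 31.2 FPM in 6w+dox mice and 26.4, 41.6, 47.0 and 33.2 FPM in 12w+dox mice. In 12w-res mice it had 25.7, 18.9, 15.9, 15.3 and 16.6 FPM. All 12w-res mice were below all mice on dox, but mouse 1 of 12w-res came within 1 FPM of the lowest 12w+dox mouse. The difference from 12w+dox passed the adjusted p and lay just under the minimum fold change (log2 fold change -0.98, SE 0.20, limma adjusted p = 0.00203). The difference from 6w+dox was called (log2 fold change -1.25, SE 0.22, limma adjusted p = 7.58e-04).

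Cdkn2a encodes p16Ink4a and p19Arf from different first exons, and the gene-level values cannot separate the 2 transcripts. It had 7.57, 8.20 and 5.51 FPM in 6w+dox mice and 7.75, 10.8, 12.8 and 8.60 FPM in 12w+dox mice. The 12w-res mice had 3.33, 4.12, 2.32, 3.31 and 3.31 FPM, from 51 to 78 reads each. Every 12w-res mouse was below every mouse on dox. Its level was 2.76-fold lower than in 12w+dox (log2 fold change -1.47, SE 0.20, limma adjusted p = 6.94e-05; exact two-sided permutation p = 0.00794). Against 6w+dox it was 2.01-fold lower (log2 fold change -1.01, SE 0.21, limma adjusted p = 0.00263), close to the minimum fold change. Without 6w+dox mouse 1 or 2 it lay under that minimum, at -0.95 and -0.90.

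Cdkn2b, the gene of p15 next to Cdkn2a, did not share this direction. It had 2.33, 2.23 and 3.81 FPM in 6w+dox mice, 4.33, 3.94, 3.70 and 3.35 FPM in 12w+dox mice and 6.08, 5.71, 5.14, 4.37 and 3.54 FPM in 12w-res mice. In 12w-res, 4 of 5 mice were above every 12w+dox mouse, and mouse 5 overlapped both groups on dox. The log2 fold change was 0.32 against 12w+dox (SE 0.20, limma adjusted p = 0.216), and its sign turned to -0.27 when libraries were scaled by total reads in place of size factors. Against 6w+dox it was 0.74 (SE 0.22, limma adjusted p = 0.0162), under the minimum fold change. That adjusted p became 0.0608 without 6w+dox mouse 1, 0.0807 without 6w+dox mouse 2, 0.12 among females alone and 0.194 with scaling by total reads.

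The long non-coding RNA gene Gm12610, listed by RefSeq with the synonym ANRIL, begins 0.561 kb beyond the upstream start of Cdkn2a, and its span overlaps Cdkn2b. It had 1.15, 0.70, 1.72 and 1.56 FPM in 12w+dox mice and 0.156, 0.264, 0.319, 0 and 0.0553 FPM in 12w-res mice, so the groups did not overlap. The log2 fold change was -1.42 (SE 0.31, limma adjusted p = 0.00273), on 0 to 7 reads in each 12w-res library. The 6w+dox mice had 0.291, 0.178 and 1.49 FPM, of which the first and second lay within the 12w-res range, and against 6w+dox the log2 fold change was -0.66 (SE 0.34, limma adjusted p = 0.149). Strand was not stated for the counting, so reads of Cdkn2b and Gm12610 cannot be told apart where they overlap. On the other side of Cdkn2a, Mtap (93.4 kb away) had a log2 fold change of 0.70 (SE 0.15, limma adjusted p = 0.00201).

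Cdkn1a, the gene of p21, led the Cip/Kip family in its difference from 12w+dox. It had 31.0, 41.8 and 38.5 FPM in 6w+dox mice, 21.8, 38.5, 37.2 and 32.0 FPM in 12w+dox mice and 16.6, 12.1, 13.6, 11.6 and 12.1 FPM in 12w-res mice. Every 12w-res mouse was below every mouse on dox, and mouse 1 of 12w+dox was the low one of its group. The level was 2.37-fold lower than in 12w+dox (log2 fold change -1.24, SE 0.17, limma adjusted p = 8.08e-05; exact two-sided permutation p = 0.00794). Against 6w+dox it was 2.75-fold lower (log2 fold change -1.46, SE 0.18, limma adjusted p = 4.93e-05). Its non-coding neighbour Trp53cor1 (lincRNA-p21) had a log2 fold change of -0.04 against 12w+dox (SE 0.21, limma adjusted p = 0.902).

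Cdkn1b, the gene of p27, had the highest level per kb in 12w-res and the smallest difference from 12w+dox among the genes that passed the adjusted p. It had 214, 189 and 120 FPM in 6w+dox mice, 171, 207, 223 and 156 FPM in 12w+dox mice and 126, 102, 119, 134 and 100 FPM in 12w-res mice. The 12w-res mice were all below the 12w+dox mice, while 6w+dox mouse 3 lay among them. It differed from 12w+dox by a log2 fold change of -0.69 (SE 0.16, limma adjusted p = 0.00471), under the minimum fold change, and its mean was 61.6% of the 12w+dox mean. Among females alone the adjusted p was 0.0806. Against 6w+dox it was -0.55 (SE 0.18, limma adjusted p = 0.0302). The adjusted p of the latter was 0.0539 with sex as a covariate, 0.0908 among females alone, 0.0653 without 12w-res mouse 2, 0.0683 without 12w-res mouse 5, 0.146 without 6w+dox mouse 1 and 0.122 without 6w+dox mouse 2.

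Cdkn1c, the imprinted gene of p57, followed another course than the other 6 genes. It had 52.9, 53.7 and 35.2 FPM in 6w+dox mice, 12.4, 20.9, 30.6 and 17.2 FPM in 12w+dox mice and 17.8, 9.83, 17.6, 14.2 and 9.28 FPM in 12w-res mice. All 12w+dox and 12w-res mice were below all 6w+dox mice, and the 12w+dox and 12w-res mice overlapped. The log2 fold change of 12w-res was -1.77 against 6w+dox (SE 0.28, limma adjusted p = 3.01e-04) and -0.52 against 12w+dox (SE 0.26, limma adjusted p = 0.124). The latter had an adjusted p of 0.0362 without 12w+dox mouse 1, and with scaling by total reads it was called (log2 fold change -1.16, adjusted p = 0.00121).

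**Figure D2:**
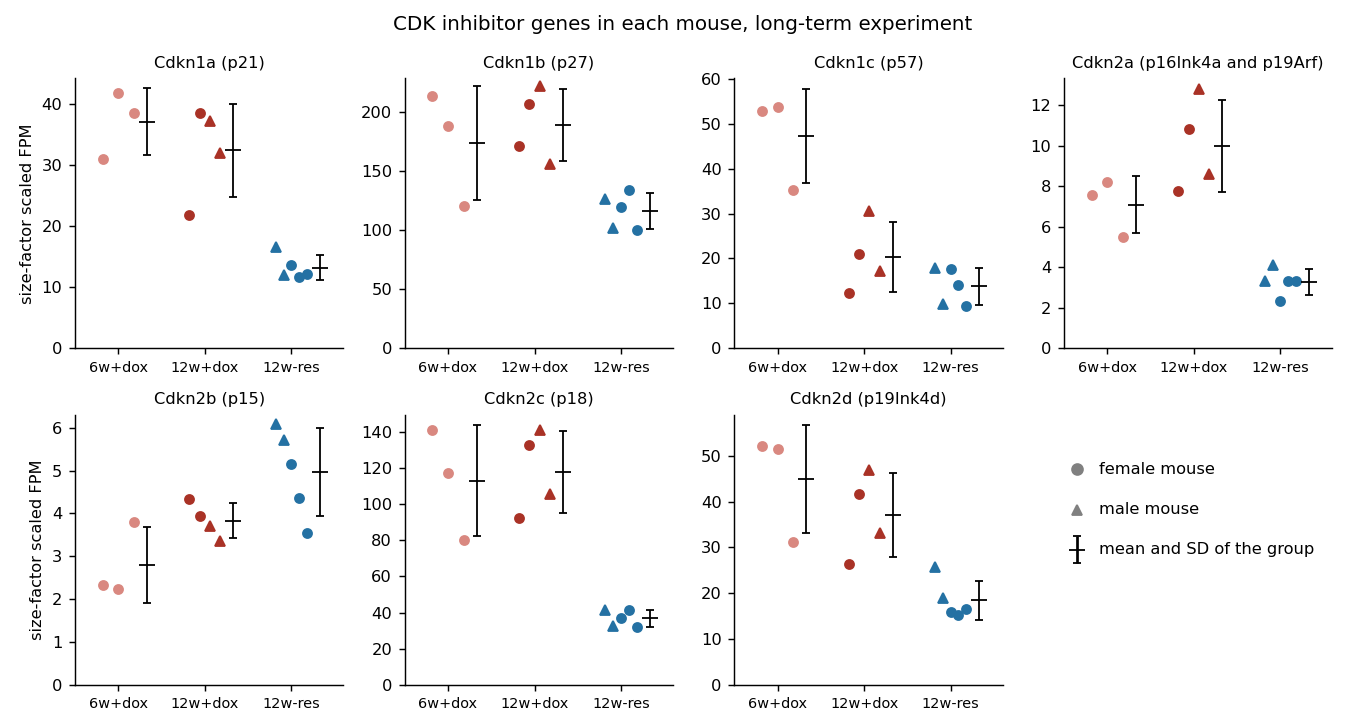
Size-factor scaled FPM of the 7 genes in each mouse of the long-term experiment, by group, with circles for females, triangles for males, and a black line with bars for the group mean and SD. For Cdkn1a, Cdkn2a, Cdkn2c and Cdkn2d the 5 12w-res mice lie below all mice on dox; for Cdkn1c the 6w+dox mice stand above both other groups, and for Cdkn2b the 12w-res mice reach highest.

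Between 6 and 12 weeks on dox, Cdkn1c was the 1 of 7 genes that was called. It was 2.38-fold lower in 12w+dox than in 6w+dox (log2 fold change -1.25, SE 0.29, limma adjusted p = 0.0094), where 4.04% of all genes were called lower and 3.15% higher. No other CDK inhibitor gene reached an adjusted p under 0.152, and the groups overlapped for all 6 (12.4% of all genes were lower and 12.9% higher without overlap). Cdkn2b had an adjusted p of 0.0464 without 6w+dox mouse 3 (limma log2 fold change 0.63), and with scaling by total reads Cdkn1b (0.47, limma adjusted p = 0.0203) and Cdkn2a (0.78, limma adjusted p = 0.0234) passed the adjusted p, all under the minimum fold change. By adjusted p alone it was also 1 of 7, lower, where 12% of all genes were lower and 10.4% higher, and unadjusted p was under 0.05 for 1 of 7 (36.5% of all genes). Exact permutation could not go below p = 0.0286 with 4 against 3 mice, and Cdkn1c had p = 0.0571. Its call was lost without 6w+dox mouse 2 (adjusted p = 0.0501) and with scaling by total reads (log2 fold change -0.93, limma adjusted p = 0.0271). All 6w+dox mice were female; among females alone Cdkn1c was called too (log2 fold change -1.50, limma adjusted p = 0.0261).

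Markers of other pituitary cells moved with Cdkn1c between 6 and 12 weeks, where 4.04% of all genes were called lower and 3.15% higher. The 10 markers of other hormone cells summed to 58700 to 94200 FPM in 6w+dox and to 1220 to 13100 FPM in 12w+dox mice, with 6 of 10 called lower. Pituicyte and neural lobe markers summed to 66.4 to 182 FPM and to 11.4 to 32.4 FPM (6 of 7 called lower). Pituitary stem and folliculostellate markers summed to 168 to 193 FPM and to 75 to 106 FPM (4 of 7 called lower). Endothelial markers summed to 197 to 255 FPM and to 69.1 to 142 FPM (4 of 8 called lower). Fibroblast and pericyte markers summed to 364 to 386 FPM and to 169 to 495 FPM (3 of 8 called lower), and 1 of 5 lymphocyte markers was called lower. Of 8 melanotroph and corticotroph markers 2 were called higher and 2 lower, and of 8 macrophage markers 0 were called. Of 9 stem and folliculostellate markers chosen, 7 were present in the long-term data, and of 9 lymphocyte markers 5. No marker that was present was at 0 in every mouse of a group. The part of the markers in the difference of Cdkn1c was not tested.

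In the long-term groups on dox, mice tended to be high or low for several CDK inhibitor genes at once. Among the 12w-res mice, mouse 1 was highest for Cdkn1a, Cdkn1c, Cdkn2b and Cdkn2d, and mouse 5 was lowest for Cdkn1b, Cdkn1c, Cdkn2b and Cdkn2c. Mouse 4 was highest for Cdkn1b and Cdkn2c but lowest for Cdkn1a and Cdkn2d. A difference between the groups in this respect was not tested. In 12w+dox, mouse 1 was lowest for Cdkn1a, Cdkn1c, Cdkn2a, Cdkn2c and Cdkn2d and highest for Cdkn2b, and mouse 3 was highest for Cdkn1b, Cdkn1c, Cdkn2a, Cdkn2c and Cdkn2d. In 6w+dox, mouse 3 was lowest for Cdkn1b, Cdkn1c, Cdkn2a, Cdkn2c and Cdkn2d, highest for Cdkn2b and highest for Rb1 (5.09 FPM, against 1.86 and 2.54 FPM). Without 6w+dox mouse 3, 5 genes were still called lower in 12w-res than in 6w+dox, Cdkn2c with a log2 fold change of -1.80 and Cdkn2a with -1.17. The change from 12w+dox to 12w-res did not differ between females and males past the test for any of the 7 genes (limma interaction, adjusted p = 0.9997 for each), and the 2 sexes had 2 or 3 mice a group. For Cdkn2c it was -1.58 in females and -1.73 in males.

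**Figure D3:**
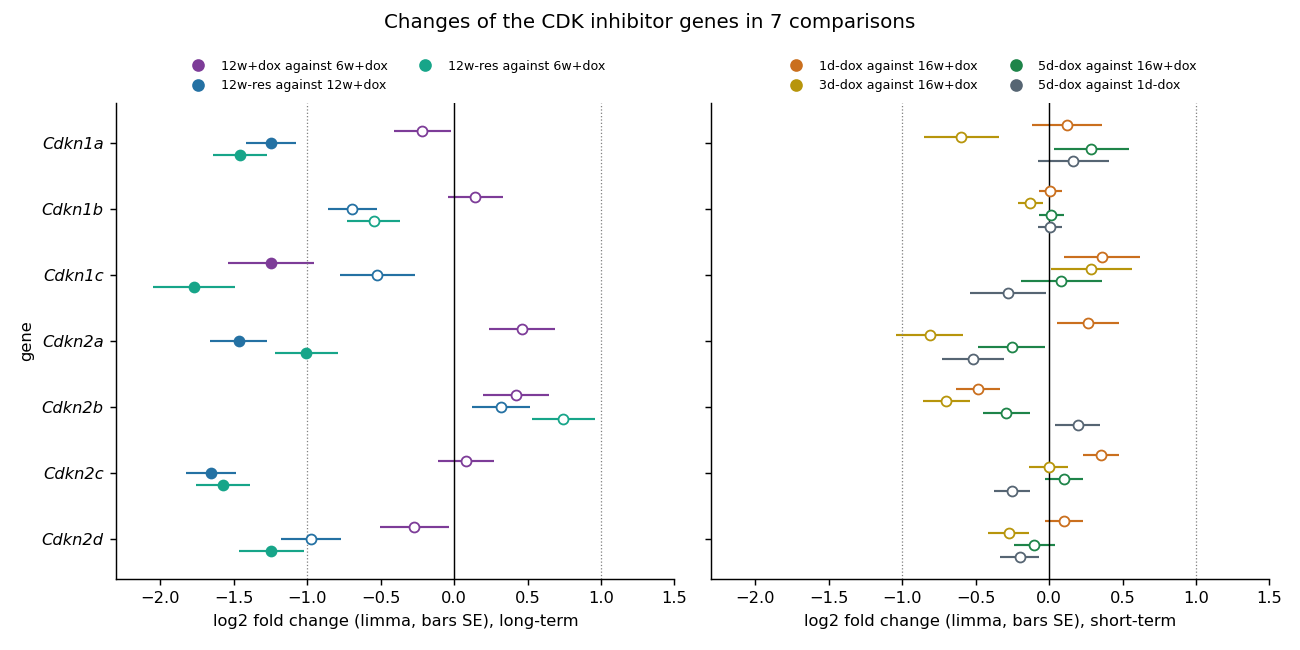
Log2 fold changes of the 7 genes from limma, with SE bars, for the 3 long-term (left) and 4 short-term (right) comparisons; filled points passed adjusted p and minimum fold change, and dotted lines mark a log2 fold change of 1 in either direction. Filled points stand on the lower side only, for Cdkn1a, Cdkn1c, Cdkn2a, Cdkn2c and Cdkn2d, all in the long-term experiment.

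In the days after dox removal, none of the 7 genes was called in any comparison by limma. Among all genes tested, 0.00716% were called higher and 0.0358% lower 1 day after dox removal, 0.0788% and 0.0502% after 3 days, and 0.086% and 0.107% after 5 days; between 5 days and 1 day both were 0.00716%. By adjusted p alone 0 of 7 genes passed too, where the shares of all genes were 0.043% higher and 0.0573% lower after 1 day, 0.158% and 0.201% after 3 days, 0.337% and 0.172% after 5 days and 0.00716% each between 5 days and 1 day. Unadjusted p was under 0.05 for 2 of 7 genes after 1 day (13.1% of all genes), 3 of 7 after 3 days (16.6%), 0 of 7 after 5 days (13.5%) and 1 of 7 between 5 days and 1 day (6.33%). DESeq2 on recovered reads called 2 of 7 genes after 3 days, Cdkn2a and Cdkn2b, both lower, and 0 of 7 in the other 3 comparisons, and edgeR called 0 of 7 in all 4. DESeq2 called 104 of all genes after 3 days where limma called 18.

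After 3 days without dox, compared with 16w+dox within males, 3 of 7 genes were lower without overlap and 0 higher, where 11% of all genes were lower and 10.6% higher. Cdkn2a had 3.25, 2.30 and 2.73 FPM on dox and 1.35, 1.22 and 1.46 FPM after 3 days, from 60 to 71 reads in each of the latter. Its log2 fold change was -0.81 (SE 0.23, limma adjusted p = 0.12) and -1.04 in DESeq2 (adjusted p = 0.0209). These 3d-dox mice were the lowest for Cdkn2a in the short-term experiment.

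Cdkn2b had 1.30, 1.74 and 1.15 FPM in 16w+dox and 0.565, 0.714 and 0.7 FPM in 3d-dox mice. Its log2 fold change was -0.70 (SE 0.16, limma adjusted p = 0.0737) and -1.08 in DESeq2 (adjusted p = 0.0217), on 26 to 35 reads a library in 3d-dox. Cdkn2b was also lower without overlap after 1 day, at 0.825, 0.641, 0.972 and 0.959 FPM (log2 fold change -0.48, SE 0.15, limma adjusted p = 0.189), where 5.6% of all genes were lower without overlap. After 5 days, when 0 of 7 genes were without overlap (9.64% of all genes were higher and 9.64% lower), it overlapped 16w+dox, at 1.23, 0.961 and 0.928 FPM (log2 fold change -0.29, SE 0.16, limma adjusted p = 0.454). With 3 against 3 mice the exact two-sided permutation test cannot go below p = 0.1.

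Cdkn2d was the other gene lower without overlap after 3 days, at 4.69, 3.69 and 4.61 FPM against 5.49, 5.34 and 5.13 FPM (log2 fold change -0.28, SE 0.14, limma adjusted p = 0.341). Cdkn1a overlapped by 1 mouse, at 3.74, 3.14 and 4.45 FPM after 3 days against 7.51, 4.36 and 6.30 FPM on dox (log2 fold change -0.60, SE 0.26, limma adjusted p = 0.258). Neither passed the adjusted p.

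Cdkn2c, the gene with the largest difference between 12w-res and 12w+dox, was higher without overlap after 1 day, at 17.6, 20.3, 17.7 and 14.4 FPM against 14.1, 12.5 and 13.8 FPM on dox (log2 fold change 0.36, SE 0.12, limma adjusted p = 0.234), where 5.6% of all genes were. It had 12.3, 14.1 and 14.0 FPM after 3 days and 12.0, 17.3 and 14.6 FPM after 5 days. Its log2 fold changes there were 0.00 (SE 0.13) and 0.10 (SE 0.13), both with overlap. The 1d-dox mice are female and the 16w+dox mice male.

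Cdkn1b ran from 46.1 to 57.6 FPM over all 13 short-term mice, and its log2 fold changes ran from -0.13 (SE 0.09) after 3 days to 0.02 (SE 0.09) after 5 days. Cdkn1c ran from 3.42 to 9.76 FPM, with overlap in all 4 comparisons. Between 5d-dox and 1d-dox, both female, 0 of 7 genes were without overlap (4.29% of all genes were higher and 3.51% lower), and Cdkn2a had the largest difference, at 1.57, 2.62 and 2.59 FPM against 3.87, 4.55, 3.52 and 2.08 FPM (log2 fold change -0.52, SE 0.21, limma adjusted p = 0.719). Per kb, Cdkn1b was the most abundant in all 4 short-term groups, with 11.6 ± 1.26 FPM per kb in 16w+dox, Cdkn2c was second at 5.46 ± 0.34 FPM per kb, and Cdkn2b was lowest.

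**Figure D4:**
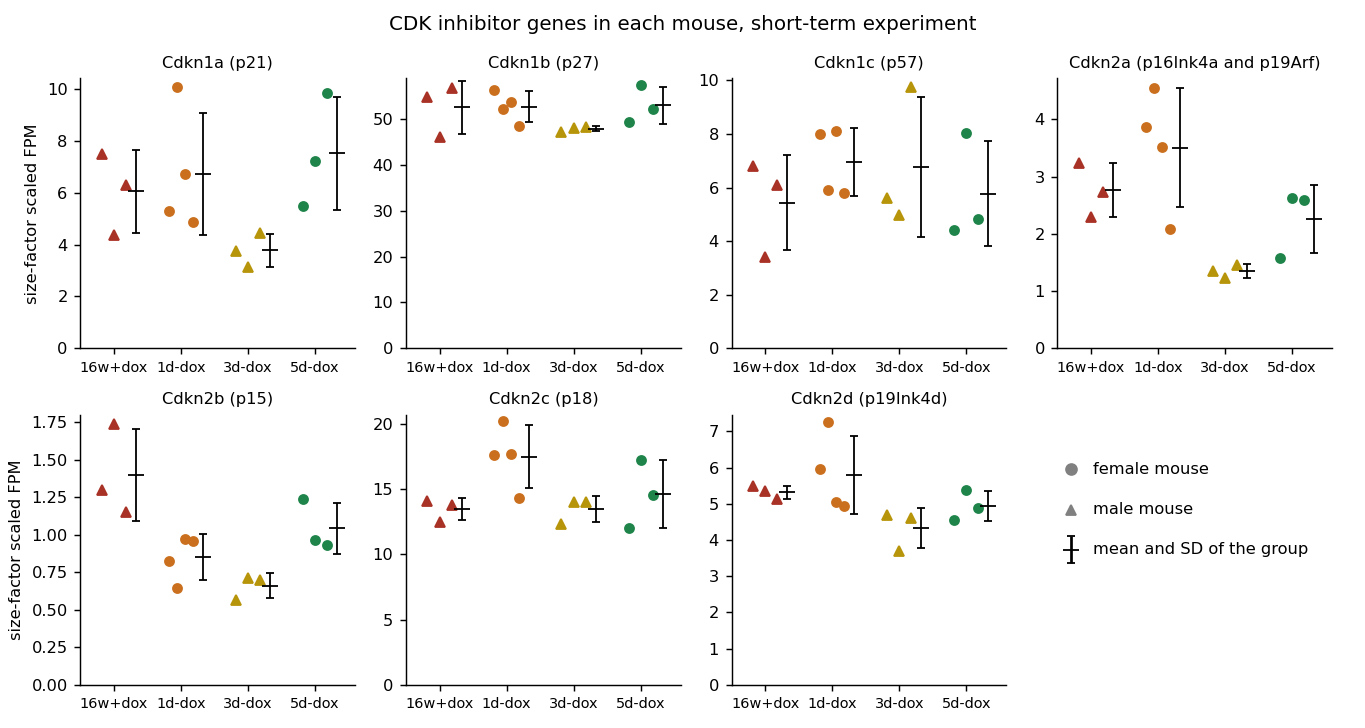
Size-factor scaled FPM of the 7 genes in each mouse of the short-term experiment, by days off dox, with circles for females, triangles for males, and a black line with bars for the group mean and SD. The 3d-dox mice lie below the 16w+dox mice for Cdkn2a, Cdkn2b and Cdkn2d, and the groups overlap for the other 4 genes at that time.

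Where 5.04% of all genes were called lower in 12w-res than in 12w+dox and 6.24% higher, 8 of the 13 genes for cyclins and kinases that the inhibitors bind were called lower and 1 higher (median log2 fold change -1.87). Those of mitosis and S phase had the largest differences: Ccnb1 (-3.51), Cdk1 (-3.46), Ccna2 (-3.45) and Ccnb2 (-3.35). The cyclin D2 gene Ccnd2 was called higher (1.47). The kinases that Ink4 proteins bind, named after their values were seen, were not called: Cdk6 had 0.01 (SE 0.16, limma adjusted p = 0.976) and Cdk4 -0.47 (SE 0.12, limma adjusted p = 0.00642). Mki67, a gene of dividing cells, had a mean of 110 FPM in 12w+dox and 10.3 FPM in 12w-res, and 20 of 20 genes of the proliferation list were called lower, with Top2a (-3.99), Mki67 (-3.34), Aurkb (-3.33) and Birc5 (-3.22) first.

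Where 5.04% of all genes were called lower and 6.24% higher, 4 of 17 genes for turnover of the inhibitor proteins were called lower and 0 higher. These were Dtl (-3.78), whose product directs p21 to a ubiquitin ligase, Cdc20 (-3.02), an activator of the anaphase-promoting complex, Cks2 (-2.75) and Skp2 (-1.41), whose product marks p27 for degradation. The list's median was -0.20. Of 12 other genes for CDK inhibitory proteins, 4 were called lower and 0 higher: the CDK1 kinase gene Wee1 (-1.86), Cdkn3 (-1.83), the pocket protein gene Rbl1 (-1.64) and Pkmyt1 (-1.38).

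Among 41 transcriptional regulators of the inhibitor genes, 4 were called lower and 3 higher (median -0.37), where 5.04% of all genes were called lower and 6.24% higher, so the called counts are not read as a result about the regulators. By adjusted p alone 20 were lower and 6 higher, where 18.3% and 19.4% of all genes were. The 4 called lower were Foxm1 (-2.77), Ezh2 (-2.52), the methyltransferase gene of Polycomb complex PRC2, E2f1 (-2.12) and Kdm2b (-1.11). The 3 called higher were Tbx2 (1.32) and Runx1 (1.32) and the Notch target Hes1 (1.19).

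Of 34 p53 target genes other than Cdkn1a that were tested, 5 were called lower and 3 higher, and the median was -0.03, where 5.04% of all genes were called lower and 6.24% higher. The lowest were Psrc1 (-3.60), Ckap2 (-3.26) and Gtse1 (-2.81), which encode proteins of dividing cells, and Pidd1 (-2.49). Those higher were Gdf15 (1.36), Sesn2 (1.31) and Ccng1 (1.04), a cyclin G gene that p53 induces. The 3 of 34 called higher lie near the share over all genes and are not read as a result about p53 targets.

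**Figure D5:**
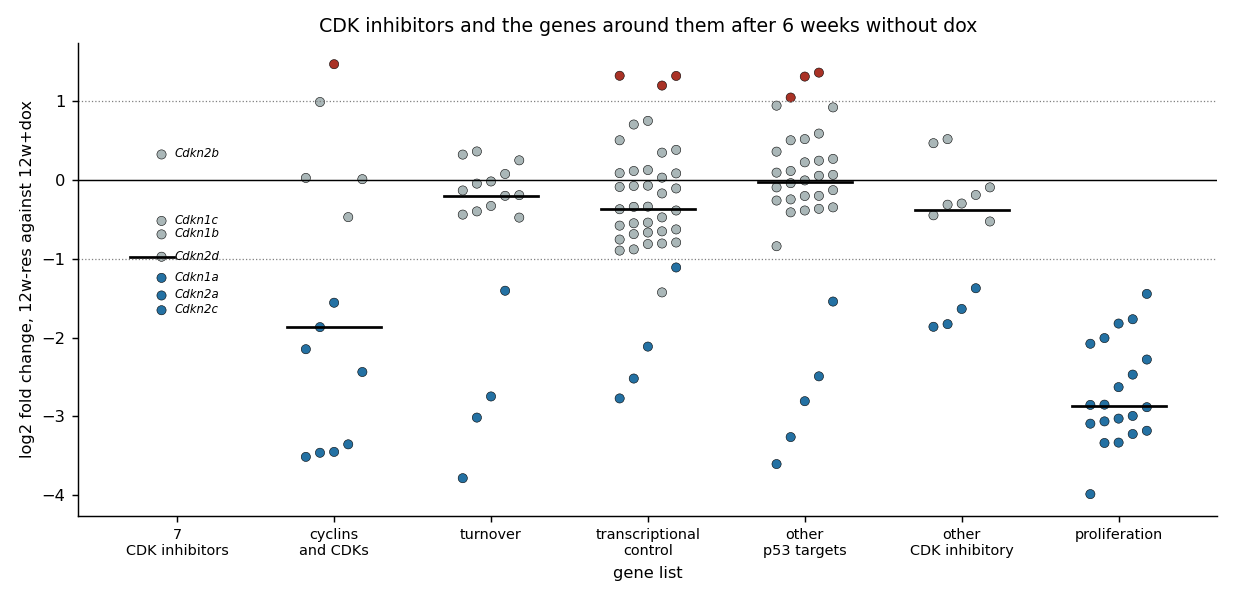
Log2 fold changes in 12w-res against 12w+dox of the 7 CDK inhibitor genes and of the genes of 6 lists around them; blue points were called lower, red points called higher, grey points not called, and thick lines are medians. The medians run from -2.87 in the proliferation list to -0.03 in the list of other p53 targets.

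Against 6w+dox, 12w-res pituitaries gave 7 lower and 0 higher of 13 cyclins and CDKs, 4 lower and 0 higher of 17 turnover genes, 6 lower and 1 higher of 41 regulators, 4 lower and 2 higher of 34 p53 targets, and 3 lower and 0 higher of 12 other CDK inhibitory genes, with 20 of 20 proliferation genes lower. Of all genes, 5.82% were called lower and 5.81% higher. The 2 of 34 p53 targets called higher lie near that share and are not read as a result. The leading genes were Cdk1 (-3.80), Ccnb2 (-3.67), Ccnb1 (-3.62) and Ccna2 (-3.18) among cyclins and CDKs, and Dtl (-3.65), Cks2 (-3.63), Cdc20 (-3.21) and Skp2 (-1.47) in turnover. Among regulators they were Egr1 (-3.31), Foxm1 (-2.33), Ezh2 (-2.15) and E2f1 (-1.97), with Foxo3 (1.08) higher. Among p53 targets they were Psrc1 (-3.34), Ckap2 (-3.25), Gtse1 (-2.76) and Pidd1 (-2.02), with Ccng1 (1.65) and Sesn2 (1.34) higher. Cdkn3 (-2.56), Pkmyt1 (-1.60) and Rbl1 (-1.30) were the other CDK inhibitory genes, and Mki67 (-3.84), Plk1 (-3.79), Top2a (-3.78) and Aurkb (-3.46) led proliferation. In 12w+dox against 6w+dox, where Cdkn1c was called, the regulators Tbx3 (-2.15) and Hes1 (-1.42) were called lower and Foxo3 (1.77) higher. Ccnd2 (-2.41) and Ccnd1 (-1.49), cyclin D genes, were called lower there and Ccne2 (1.18) higher, and Wee1 (1.11) and Eda2r (1.10) were called higher and Rap2b (-1.08) lower. Of all genes, 4.04% were called lower and 3.15% higher in that comparison. No turnover or proliferation gene was called there; those with the smallest p were Ddb1 (0.42, limma adjusted p = 0.0185) and Cks2 (-0.88, limma adjusted p = 0.0281), and Mki67 (-0.50, limma adjusted p = 0.0931) and Plk1 (-0.70, limma adjusted p = 0.134).

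In the 4 short-term comparisons, 0 genes of the cyclin and CDK, turnover, regulator, p53 target, other inhibitory and proliferation lists were called, and those with the smallest p are given in that order with their log2 fold changes. After 1 day they were Ccnd2 (-0.57), Cdk2 (0.34), Dtl (0.48), Skp2 (0.25), Tbx2 (-0.73), Smad3 (-0.33), Ercc5 (-0.28), Ephx1 (0.34), Hexim1 (-0.30), Cables1 (0.46), Mcm7 (0.31) and Tk1 (0.48). After 3 days they were Ccnd2 (0.77), Cdk6 (0.52), Ddb1 (-0.17), Skp2 (0.28), Foxo1 (0.45), Men1 (-0.30), Aen (-0.43), Plk3 (-0.65), Hexim1 (-0.26), Cables1 (0.54), Mki67 (0.48) and Tyms (0.45). After 5 days they were Ccnd2 (-0.62), Cdk2 (0.36), Ubac1 (0.40), Cul1 (-0.17), Tbx2 (-0.57), Jund (0.41), Ei24 (0.30), Mdm2 (-0.23), Cables1 (0.35), Cdkn2aipnl (0.17), Cdt1 (0.32) and Mcm3 (0.30). The smallest limma adjusted p among them was 0.0779 after 1 day (Tbx2), 0.0821 after 3 days (Foxo1) and 0.128 after 5 days (Ubac1). Between 5 days and 1 day they were Ccnb2 (-0.35), Ccna2 (-0.31), Dtl (-0.51), Ubac1 (0.22), Klf4 (-0.77), Mdm2 (-0.19, in 2 lists), Ccng1 (0.41), Hexim1 (0.26), Cdkn3 (-0.20), Mcm7 (-0.28) and Bub1 (-0.40), with 0.579 as the smallest limma adjusted p (Mcm7). In 16w+dox males and 1d-dox and 5d-dox females, other hormone cell markers summed to 201 to 270, 23.5 to 107 and 26.1 to 103 FPM. Endothelial markers had 29.6 to 51.6, 16.8 to 22.5 and 13 to 17.6 FPM. Fibroblast and pericyte markers had 84.6 to 124, 41.7 to 61.4 and 36.9 to 64.1 FPM. In 3d-dox these sums overlapped 16w+dox. Stem and folliculostellate markers had 16.9 to 18.1 FPM in 16w+dox and 21.3 to 21.8 FPM in 5d-dox. Their part for the inhibitor genes was not tested.

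Cell type markers also moved between 12w+dox and 12w-res, where 5.04% of all genes were called lower and 6.24% higher. Fibroblast and pericyte markers summed to 169 to 495 FPM in 12w+dox and to 845 to 1180 FPM in 12w-res (8 of 8 called higher). Endothelial markers summed to 69.1 to 142 FPM and to 218 to 298 FPM (7 of 8 called higher). Of the rest, 2 of 8 melanotroph and corticotroph, 2 of 10 other hormone cell, 2 of 7 stem and folliculostellate, 1 of 8 macrophage, 0 of 7 pituicyte and 0 of 5 lymphocyte markers were called higher, and none lower. Other hormone cell markers summed to 1220 to 13100 FPM in 12w+dox and to 17400 to 35000 FPM in 12w-res. Macrophage markers summed to 101 to 131 FPM and to 147 to 225 FPM, with 6 of 8 higher by adjusted p alone (19.4% of all genes). Melanotroph and corticotroph markers without Pomc summed to 3020 to 4390 FPM and to 6510 to 8200 FPM. Sums of stem and folliculostellate, pituicyte and lymphocyte markers overlapped. The part of the markers in the differences of the inhibitor genes was not tested.

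Over the 25 mice, with log2 values centred within each experiment, the genes whose pattern was nearest to Cdkn2c among 13520 genes compared were Tubb5, H2afv and Slbp, at a root mean square difference of 0.14 to 0.16 on the log2 scale, where Cdkn2c itself had a root mean square of 0.60. For Cdkn2d they were Dnajc9, D030056L22Rik and H2afz (0.17). For Cdkn1a the nearest were Nt5dc2, B3gnt8 and Fen1 (0.28 to 0.31), for Cdkn2a Espn, Bok and Tmem132a (0.32 to 0.33), and for Cdkn1c Wfdc2, Tubb2a and Dctpp1 (0.32 to 0.34). These are descriptions over libraries that share groups and size factors.

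The genes next to the members, 2 on each side, came to 25 genes beside the members themselves. In 12w-res against 12w+dox, 2 of the 25 were called lower and 0 higher, where 5.04% of all genes were called lower and 6.24% higher. They were Gm12610 beside Cdkn2a and Cpne5, 55.8 kb from Cdkn1a (log2 fold change -1.01, SE 0.34, limma adjusted p = 0.0308). On the other side of Cdkn1a, Srsf3 (47.6 kb away) had -0.92 (SE 0.15, limma adjusted p = 2.96e-04). Next to Cdkn2c, Faf1 (9.87 kb away) had -0.19 (SE 0.11, limma adjusted p = 0.175). Next to Cdkn2d, Kri1 (0.49 kb away) had 0.18 (SE 0.19, limma adjusted p = 0.489). At the imprinted Cdkn1c locus, Kcnq1 had 0.33 (SE 0.18, limma adjusted p = 0.155) and Slc22a18 0.14 (SE 0.27, limma adjusted p = 0.708). In the comparisons where Cdkn1c was called lower, Kcnq1 was higher by adjusted p, and it was called only in 12w-res against 6w+dox. It had 1.14 in 12w-res against 6w+dox (SE 0.19, limma adjusted p = 4.775e-04) and 0.81 in 12w+dox against 6w+dox (SE 0.20, limma adjusted p = 0.0119). Slc22a18 had 0.03 (SE 0.29) and -0.11 (SE 0.31) there. The other neighbours were Kcnq1ot1 at -0.50 (SE 0.66) and -0.52 (SE 0.69) and Nap1l4 at -0.17 (SE 0.11) and 0.15 (SE 0.11). None of these neighbours but Kcnq1 passed the adjusted p there. In 12w-res against 12w+dox, by adjusted p alone, 6 of the 25 were lower and 3 higher, where 18.3% of all genes were lower and 19.4% higher. These counts lie near the shares over all genes, and nothing is read from them about the neighbours.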

How the data were processed

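Pituitary RNA of 25 shRb mice was sequenced in 2 experiments of 12 and 13 mice. According to the study's methods the reads (NovaSeq6000, paired-end) were mapped to mm10 with STAR 2.5.1b at default settings, and RefSeq genes were kept that reached 10 reads in over 50% of a condition's samples. The read counter and strand setting are not given in the sources used here. The deposited values are a signal, reads divided by DESeq2 size factors and scaled to FPM by the authors, and each of 183780 long-term and 182143 short-term values was a whole multiple of its library's value for 1 read within 0.1 read, which gave back the counts. In the short-term table, 4 lines that name no gene held 68.8 to 75.0% of the reads. They were left out of read totals and tests. No column of per-sample values was left unused (0 columns).

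The main test was limma 3.58.1 (R 4.3.3; trended empirical Bayes) on log2(FPM + 0.5), with all groups of an experiment in 1 fit and Benjamini-Hochberg adjustment over all 15315 or 13958 genes tested, the latter after the 10-read filter was applied to the short-term table. Fold changes are on that scale and understate low genes. An exact two-sided permutation test over mice was run for each gene. Named beside the members were Rb1 and GFP, up to 4 called genes in each direction of each list by size of change, or the 2 with the smallest p in a list without calls, the 3 nearest genes in pattern to each called member, and the genes next to members, 2 on each side; Cdk4 and Cdk6 in 12w-res were added after their values were seen. Of the genes next to members the text prints some and counts the rest. Levels per kb used the longest GENCODE vM21 transcript. edgeR 4.0.16, DESeq2 1.42.0, other scalings, filters, pseudocounts, sex, replicate number and leaving out each mouse were tried as alternatives. The fits were tested on simulated data. Replicates of a group differed by more than sampling noise in all 34 pairs (chi-square per degree of freedom 3.93 to 222). The members and the gene lists were chosen with earlier results of these data known.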

Additional observations from a re-analysis of the deposited data

How the results depend on the processing

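Calls of CDK inhibitor genes kept their number within 1.5 times under 128 of 133 alternatives. This count includes the short-term comparisons, where the main fit called 0 genes and 0 again counted as kept. It compares numbers of genes and not which genes were called. The exceptions were scaling by total reads (0 in 12w+dox against 6w+dox, 6 in 12w-res against 12w+dox), no minimum fold change (5 in 12w-res against 12w+dox), DESeq2 (2 in 3d-dox against 16w+dox) and leaving out a mouse in 12w+dox against 6w+dox (0 to 1 genes called). Over all genes, DESeq2 called 113, 104, 140 and 7 genes where limma called 6, 18, 27 and 2 after 1, 3 and 5 days and between 5 days and 1 day, and scaling by total reads called 3608 where size factors gave 1727 in 12w-res against 12w+dox. The cause was not tested.

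Signs turned for log2 fold changes that were not called. With scaling by total reads these were Cdkn1a (0.11) and Cdkn2d (0.054) in 12w+dox against 6w+dox, Cdkn2b (-0.27) in 12w-res against 12w+dox, Cdkn1b (0.023) and Cdkn2c (0.14) in 3d-dox and Cdkn1b (-0.064) in 5d-dox against 16w+dox, and Cdkn1b (-0.073) in 5d-dox against 1d-dox. With edgeR (TMM), Cdkn2c in 3d-dox was 0.00364. With a mouse left out, the ranges were -0.10 to 0.31 (Cdkn1b) and -0.15 to 0.26 (Cdkn2c) in 12w+dox against 6w+dox; -0.079 to 0.28 (Cdkn1a), -0.083 to 0.067 (Cdkn1b) and -0.0051 to 0.17 (Cdkn2d) after 1 day; -0.053 to 0.058 (Cdkn2c) after 3 days; -0.076 to 0.074 (Cdkn1b), -0.19 to 0.26 (Cdkn1c) and -0.023 to 0.23 (Cdkn2c) after 5 days; and -0.036 to 0.36 (Cdkn1a) and -0.053 to 0.056 (Cdkn1b) in 5d-dox against 1d-dox.

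Replicate numbers did not pair the mice: deviations of same-numbered mice correlated from -0.17 to 0.24 in the long-term experiment (over 0.1 in 1 of 10 pairs) and from -0.21 to 0.17 in the short-term experiment (3 of 18). With a replicate block, 3, 4 and 1 genes were called in 12w-res against 12w+dox, 12w-res against 6w+dox (Cdkn2a not called) and 12w+dox against 6w+dox, and 0 in the short-term comparisons. Under the block Cdkn1b had an adjusted p of 0.143 in 12w-res against 6w+dox and a log2 fold change of -0.032 in 5d-dox against 1d-dox. Cdkn2a and Cdkn2b rest on few reads, down to 51 and 40 in the long-term and 56 and 21 in the short-term libraries.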
